A study of Mus musculus with 6 samples.

Results

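Genes of glucose breakdown and of the response to low oxygen, 10 in all, were followed across 6 libraries of macrophages sorted from mouse fat. The genes were taken by name from the table of 23946 gene symbols, and all 10 were found: the glucose transporter gene Slc2a1, the enzyme genes Hk2, Pfkfb3, Aldoa, Pgk1, Pkm and Ldha, and the hypoxia genes Hif1a, Egln3 and Bnip3. Cells positive for CD45, CD11b and F4/80 were sorted from dissociated omentum (OM) and mesenteric adipose tissue (MY) of C57BL/6 mice. Naive mice had received no cancer cells, and the others were taken 24 h or 7 d after an injection of ID8 cells, a mouse ovarian carcinoma line, so that the 6 groups were naive OM, OM 24h, OM 7d, naive MY, MY 24h and MY 7d. The design text gives 9 mice handled in groups of 3. The paper describes this pooling for omenta, and how mesenteric tissue was pooled is not stated. With a single library for each group there was no replicate error to set against any value, no test between groups was made, and every difference describes a pair of libraries.

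Glycolysis splits glucose into pyruvate in the cytosol. GLUT1, encoded by Slc2a1, brings glucose into the cell, hexokinase 2 (Hk2) traps it by phosphorylation, and the product of Pfkfb3 makes fructose 2,6-bisphosphate, a strong activator of the committed step. Aldolase A (Aldoa), phosphoglycerate kinase 1 (Pgk1) and pyruvate kinase M (Pkm) carry the pathway on, and lactate dehydrogenase A (Ldha) turns pyruvate into lactate. The oxygen-regulated subunit of the transcription factor HIF-1 is encoded by Hif1a. In normal oxygen it is marked for destruction by prolyl hydroxylases, one of which, PHD3, is the product of Egln3, and Egln3 and Bnip3, which encodes a mitochondrial receptor for autophagy, are themselves textbook HIF targets. In macrophages, inflammatory activation is known to raise glycolysis, and HIF-1 alpha protein is regulated largely by its stability, which RNA levels do not show.

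HIF binds DNA at a core motif, ACGTG. The 29 bases around the match nearest upstream of an annotated start site are shown for each gene. Binding of HIF was not measured here. The sequences are from RefSeq promoter windows (GRCm38.p6 annotation, 250 bases before to 50 bases after each start), read 5′ to 3′ on the strand of the gene, and capitals mark ACGTG or its reverse complement CACGT.
Slc2a1: gtcccgccccggACGTGctccccaggccc
Hk2: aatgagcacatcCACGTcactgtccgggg
Pfkfb3: acccttctctccACGTGaaagggggctgg
Aldoa: tgtggctcgagtCACGTcctagcggggcg
Pgk1: aaatggaagtagCACGTctcactagtctc
Pkm: ctccgatccggtCACGTccgcgccgcagc
Ldha: cgtgggttcccgCACGTccgctgggctcc
Hif1a: tggctgagagcaACGTGggctggggtggg
Egln3: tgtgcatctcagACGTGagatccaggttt
Bnip3: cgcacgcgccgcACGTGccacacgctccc

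The 10 genes have 15 such windows. Each matched its own chromosome in the mouse assembly NCBIM37, also called mm9, exactly once, and other chromosomes were not searched. On that assembly GENCODE M1 places Slc2a1 at chr4:118781316-118809935, Pgk1 at chrX:103382439-103399038, Pkm at chr9:59504383-59527182, Ldha at chr7:54096845-54110997 and Hif1a at chr12:75002362-75048517 on the plus strand, Pkm under the older name Pkm2. It places Hk2 at chr6:82675019-82724448, Pfkfb3 at chr2:11393057-11423728, Aldoa at chr7:133938748-133944265, Egln3 at chr12:55279968-55304847 and Bnip3 at chr7:146082519-146101202 on the minus strand. The printed stretch of Slc2a1 is on the plus strand at chr4:118781302-118781330, starts its motif 36 bases before the RefSeq start, and reaches into the first exon and 5′ UTR of the GENCODE M1 annotation. Those of Aldoa (minus strand, chr7:133942878-133942906), Pkm (plus strand, chr9:59504947-59504975), Ldha (plus strand, chr7:54101128-54101156) and Hif1a (plus strand, chr12:75008772-75008800) fell in introns of longer transcripts of the same genes in that annotation, with motifs 126, 75, 34 and 70 bases before the RefSeq start. Those of Hk2 (minus strand, chr6:82724484-82724512), Pfkfb3 (minus strand, chr2:11423753-11423781), Pgk1 (plus strand, chrX:103382296-103382324), Egln3 (minus strand, chr12:55305074-55305102) and Bnip3 (minus strand, chr7:146101280-146101308) lay outside annotated genes, with motifs 52, 52, 131, 229 and 107 bases before the start.

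Searched on both strands, ACGTG was found in 12 of the 15 windows and in at least 1 window of all 10 genes. It was in 19.6% of all 32851 promoter windows and in at least 1 window of 21.8% of all genes. The sister core GCGTG was in 5 of the 15 windows and in 32.4% of all windows. The windows of the 10 genes also held a median of 24 CG dinucleotides, against 7 over all windows, and ACGTG contains CG; the part of base composition in its frequency was not tested. The genes were chosen as members of the hypoxia response, so the shared motif is a description of the list. In 4 genes a match lay inside CACGTG, the E-box motif that other factors use.

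**Figure D1:**
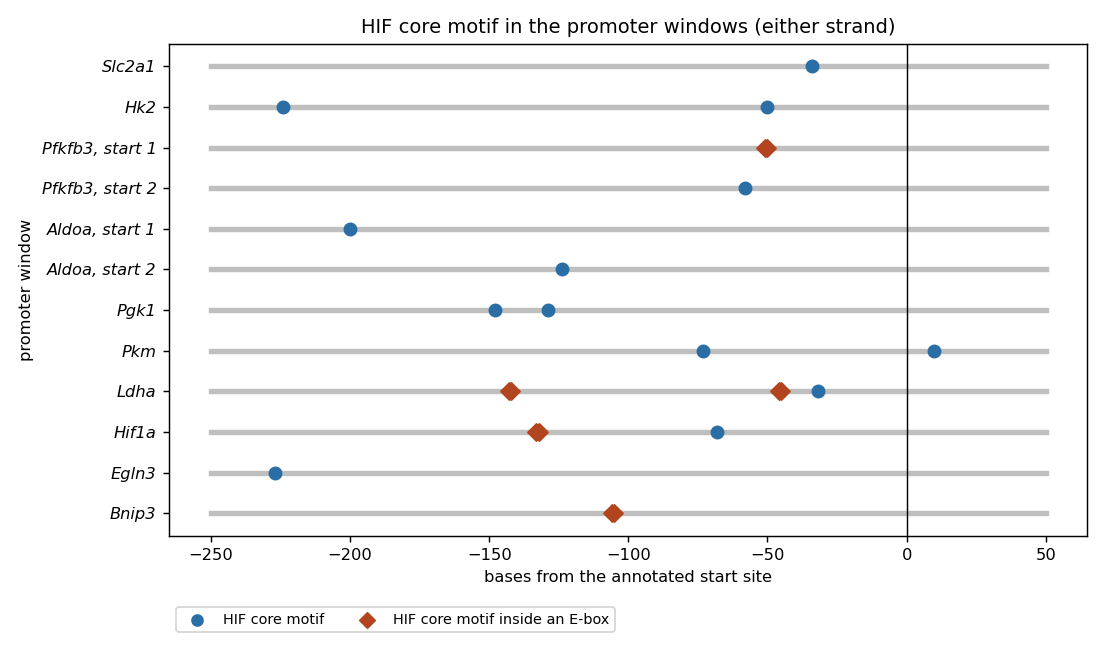
Positions of the HIF core motif on either strand in the RefSeq promoter windows of the 10 genes that hold it, with bases from the annotated start site on the horizontal axis and a grey bar for each 300-base window. Circles are matches and diamonds are matches inside an E-box; 12 of 15 windows are drawn, since 3 hold no match.

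The libraries carried the sort markers, and RNA of other cells with them. The summed FPKM (fragments per kilobase of transcript, scaled to the library's aligned reads) of 6 macrophage markers was 460.4 in naive OM, 1572 in OM 24h and 338 in OM 7d, and it was 276.2, 601.6 and 378.6 in the mesenteric series, with no marker at 0. The 6 mesothelial and epithelial markers summed to 86 in naive OM, 974 in OM 24h and 933.3 in OM 7d but to at most 1.07 in any mesenteric library, where Wt1 was listed at 0 in naive MY and MY 7d. The sum over 6 detected neutrophil markers ran from 6839 to 18756 in the omentum and from 65.5 to 815.8 in the mesentery, and over 5 T cell markers from 22.4 to 87.5 and from 378.6 to 838.3. The 4 B cell markers summed to 902.7 to 3958 in the omentum and 521.6 to 1532 in the mesentery, 4 NK cell markers to 5.83 to 212.1 and 606.7 to 1456, 5 fibroblast markers to 219.7 to 1179 and 1.92 to 2.88, and 4 dendritic cell markers to 119.7 to 309.3 and 74.7 to 120.8. Most of the omental dendritic cell sum was Cd209a, at 82 to 263.8 FPKM in the omentum and 11.8 to 15.3 in the mesentery. Flt3 went the other way, at 10.5 to 24.6 and 47.2 to 81.5, and Zbtb46 and Xcr1 overlapped. Endothelial markers (3) summed to at most 46.2 and adipocyte markers (3) to at most 2.46 in any library. Plin1 and Lep were listed at 0 in some. The 6 genes induced by tissue dissociation summed to 1279 to 2449 in the omentum and 50.1 to 59 in the mesentery, and 4 proliferation genes to 30.8 to 62.7 and 16.2 to 42.4. Cd74, at 11323 or more in the other 5 libraries, was listed at 0 in OM 24h. In bulk samples, fewer cells of a type and less RNA per cell cannot be told apart.

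The glucose transporter gene was higher in the omentum at each time. The FPKM of Slc2a1 was 61.5 in naive OM, 53.5 in OM 24h and 50.8 in OM 7d, and 22 in naive MY, 16.6 in MY 24h and 31.3 in MY 7d. Every omental library was above every mesenteric one, and the lowest omental value was 1.62 times the highest mesenteric value. On the log2(FPKM + 1) scale naive OM was above naive MY by 1.44 and OM 24h above MY 24h by 1.63, both past 2-fold, while at 7 d the gap was 0.68. The neutrophil, fibroblast, mesothelial and tissue dissociation sums were also higher in every omental library than in every mesenteric one. Among the neutrophil markers S100a8, S100a9, Ngp and Camp were so too, while Csf3r and Cxcr2 overlapped between the tissues. The part of these sums in the Slc2a1 level was not tested. The difference from naive was -0.20 at 24 h and -0.27 at 7 d in the omentum and -0.38 and 0.49 in the mesentery, each under 2-fold, and the mesenteric libraries ranged over a factor of 1.88. Slc2a3, which encodes the other main glucose transporter of leukocytes, GLUT3, stood between 13.5 and 21 in all 6 libraries, so that the ratio of Slc2a1 to Slc2a3 was 2.55 to 3.49 in the omentum and 1.23 to 1.59 in the mesentery.

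Hk2 had the lowest levels of the glycolytic enzyme genes among the 10 in every library, and it too was higher in the omentum. Its FPKM was 3.30, 7.00 and 3.80 in naive OM, OM 24h and OM 7d, and 1.60, 1.67 and 1.16 in naive MY, MY 24h and MY 7d. The tissues did not overlap, and OM 24h stood apart within the omentum. Over all expressed genes 34.4% did not overlap, 16.7% with the omentum above. The neutrophil, fibroblast, mesothelial and tissue dissociation sums were also higher in every omental library than in every mesenteric one. Their part in the Hk2 level was not tested. The difference of OM 24h from naive OM was 0.90 (FPKM ratio 2.12), under 2-fold on the log2(FPKM + 1) scale, where low values are drawn together. Between tissues the differences were 0.73 in naive mice, 1.58 at 24 h and 1.15 at 7 d, and with a pseudocount of 5 those at 24 h and 7 d were 0.85 and 0.51, under 2-fold. Hk2 gave at most 7.53% of the summed FPKM of Hk1, Hk2 and Hk3 in any library, in OM 24h. Hk1, the housekeeping hexokinase, held between 26.1 and 47.8 FPKM in all libraries, and Hk3, the hexokinase typical of myeloid cells, rose in the omentum at 24 h from 14.8 to 43.7 (difference 1.50) and stood at 41.2, 77.3 and 42.2 in the mesenteric time series.

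Pfkfb3 went the other way, with the widest gap between the tissues of the 10 genes. Its FPKM was 13.1, 9.75 and 10.9 in naive OM, OM 24h and OM 7d, and 63.1, 79.9 and 49.4 in naive MY, MY 24h and MY 7d. Every mesenteric library was at least 3.78 times every omental one. The omentum was lower than the mesentery by -2.19 in naive mice, -2.91 at 24 h and -2.09 at 7 d, each past 2-fold. Against naive the gene moved little in either tissue, with differences between -0.39 and 0.34. Pfkfb4, a gene of the same enzyme family, was at 14.7, 22.7 and 13.9 in the omentum and 5.45, 9.68 and 7.69 in the mesentery, so that the ratio of Pfkfb3 to Pfkfb4 was at most 0.886 in the omentum and at least 6.43 in the mesentery. Named here after its values were seen, the likeness to other genes was closest for Pfkfb3: over the 6 libraries the genes with the pattern most like that of Pfkfb3, among 7998 with an FPKM of at least 10 in some library, were Il4i1 and Eno3 (Pearson's r 0.999 each on the log2 scale) and Rnf40 (0.997). Eno3, which encodes an enolase of glycolysis, was at 17.6, 12.2 and 12.5 in the omentum and 170.5, 241.9 and 131.9 in the mesentery. The summed T cell and NK cell markers were likewise higher in every mesenteric library than in every omental one. Of the dendritic cell markers, Flt3 was so too and Cd209a was the reverse. In naive MY, MY 24h and MY 7d the T cell sum was 666.4, 378.6 and 838.3. The NK cell sum there was 1456, 889.4 and 606.7, and Flt3 stood at 47.2, 81.5 and 54.8. The part of these cell types in the level of Pfkfb3 was not tested.

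The abundant enzymes of the lower pathway were all highest in OM 24h, each at less than 2-fold over naive OM. Aldoa stood at 403.2 FPKM in naive OM, 778.8 in OM 24h and 489.8 in OM 7d, and at 412.1, 495.7 and 482.6 in naive MY, MY 24h and MY 7d. Pkm, which catalyses the last step, stood at 366.1, 667.1 and 442.2 in the omentum and at 342.8, 339.7 and 431.3 in the mesentery. For both, OM 24h was the highest of the 6 libraries and the other 5 lay close together. The FPKM of OM 24h was 1.93 times that of naive OM for Aldoa and 1.82 times for Pkm, with differences of 0.95 and 0.86 on the log2 scale.

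Pgk1 stood at 42.9, 82.1 and 51.1 FPKM in the omental series and at 52.5, 53.6 and 60.4 in the mesenteric one. Of the 75-base windows of its longest coding transcript, 91.4% occur word for word elsewhere in NCBIM37, so its level depends on how reads that fit more than 1 place were shared out and is uncertain. The same share was 43.0% for Bnip3, 22.5% for Pkm, 7.15% for Ldha and 1.49% for Aldoa, and 0 windows for Slc2a1, Hk2, Pfkfb3, Hif1a and Egln3. Pgk1 had the same order as Aldoa in the omentum, with a difference of 0.92 between OM 24h and naive OM.

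Ldha was among the most abundant of the 10 genes in every library. It stood at 571.7, 833.2 and 562.8 FPKM in the omental series, and at 497.3, 405.3 and 607 in the mesenteric one. OM 24h was again the highest library, by 0.54 over naive OM, while MY 24h was the lowest of all 6. OM 24h was above MY 24h by 1.04, just past 2-fold, and this became 0.72 when each library was rescaled to a sum of 1000000. Its partner gene Ldhb, whose product favours the reverse reaction, rose in the omentum from 5.67 to 181.5 at 24 h and 212.8 at 7 d, while it stayed between 9.50 and 11.2 in the mesentery. Ldha thus made up 99.0%, 82.1% and 72.6% of the summed FPKM of the 2 genes in naive OM, OM 24h and OM 7d, and between 97.7% and 98.2% in the mesentery. The mesothelial and epithelial marker sum rose in the same omental libraries, from 86 to 974 and 933.3, and its part in the Ldhb level was not tested.

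Together Hk2, Aldoa, Pgk1, Pkm and Ldha held 1387, 2368 and 1550 FPKM in naive OM, OM 24h and OM 7d, and 1306, 1296 and 1582 in naive MY, MY 24h and MY 7d. As a share of the whole table this was 0.223%, 0.332% and 0.277% in the omentum and 0.248%, 0.226% and 0.295% in the mesentery. The OM 24h library held the highest share on this scale too. The macrophage marker sum was also highest in OM 24h, at 1572 against 460.4 in naive OM, and its part in these enzyme levels was not tested.

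**Figure D2:**
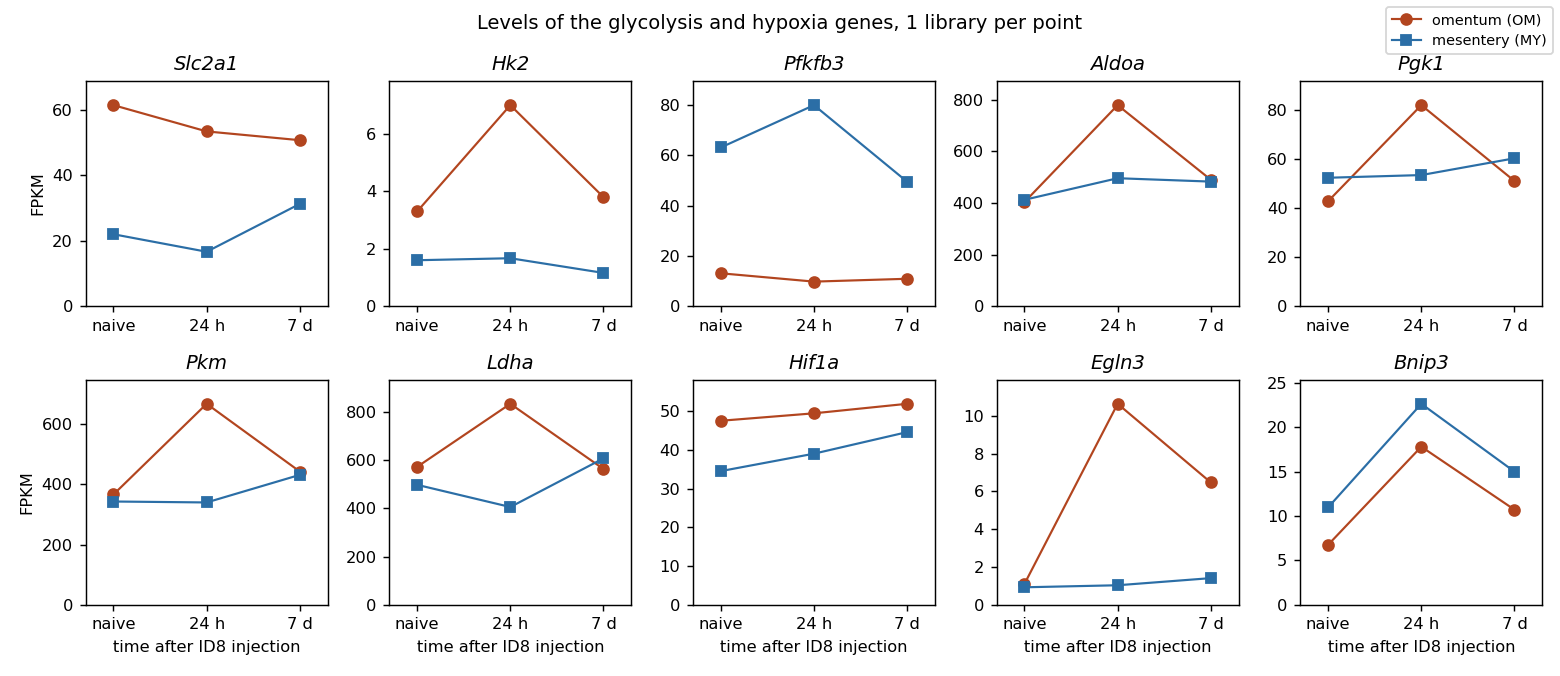
FPKM of the 10 genes (linear axes from 0) in naive mice and 24 h and 7 d after ID8 injection, with circles for omental and squares for mesenteric libraries, 1 library per point. Aldoa, Pgk1, Pkm, Ldha and Hk2 peak in OM 24h, Slc2a1 and Pfkfb3 separate the tissues in opposite directions, and Egln3 is past 2-fold over naive in both injected omental libraries and in neither mesenteric one.

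Hif1a RNA was the steadiest of the 10. Its FPKM was 47.5, 49.4 and 51.9 in the omental series and 34.5, 39 and 44.6 in the mesenteric one, each in the order naive, 24 h, 7 d. The omental libraries were all above the mesenteric ones, but the nearest pair, naive OM and MY 7d, differed by a factor of 1.07, and after rescaling to a sum of 1000000 its tissues overlapped. Its highest and lowest libraries differed by a factor of 1.50, the smallest range of the 10 genes. Epas1, which encodes HIF-2 alpha, reached at most 2.17 FPKM (OM 7d), so the ratio of Hif1a to Epas1 was between 23.9 and 164. Vhl, whose product takes hydroxylated HIF to degradation, was lower in the omentum, at 19.1, 23.1 and 27.3 against 58.1, 86.8 and 63.7 in the mesentery. The T cell and NK cell sums had the same tissue order, and their part in the Vhl level was not tested.

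Egln3 showed the largest change of the 10 genes after injection, and only its omental values moved past 2-fold. Its FPKM was 1.10 in naive OM, 10.6 in OM 24h and 6.47 in OM 7d, against 0.925, 1.03 and 1.41 in naive MY, MY 24h and MY 7d. The 2 omental libraries after injection stood above the other 4, which lay within a factor of 1.52 in the mesentery. The rise was 2.47 on the log2(FPKM + 1) scale at 24 h and 1.83 at 7 d, or 9.63 and 5.86 times in FPKM, and with a pseudocount of 5 the rise at 7 d was 0.91, under 2-fold. In the mesentery the differences were 0.08 and 0.32. Egln1 and Egln2, which encode the other prolyl hydroxylases PHD2 and PHD1, stood between 22.6 and 32.4 and between 43.7 and 61.1 in all libraries, and Egln3 went from 1.21% of the summed FPKM of the 3 genes in naive OM to 11.2% in OM 24h and 7.27% in OM 7d. The genes with the most similar pattern over the 6 libraries were Cnpy2 (Pearson's r 0.997), the matrix metalloproteinase gene Mmp14 (0.996) and Wnt10a (0.995). With 6 points and 7998 genes searched, such values describe these libraries only. The mesothelial and epithelial markers summed to 86, 974 and 933.3 in the omental libraries, and the macrophage markers to 460.4, 1572 and 338; the part of either in the level of Egln3 was not tested.

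Bnip3 was highest at 24 h in both tissues. Its FPKM was 6.76, 17.8 and 10.7 in the omental series and 11, 22.6 and 15 in the mesenteric one, each in the order naive, 24 h, 7 d. In each tissue the order was 24 h, then 7 d, then naive, and the tissues overlapped. The difference from naive at 24 h was 1.28 in the omentum, past 2-fold, and 0.98 in the mesentery, just under it. A pseudocount of 5 gave 0.96 in the omentum and one of 0.1 gave 1.04 in the mesentery, so both calls turn on this setting. The FPKM ratios were 2.64 and 2.06. At 7 d it was 0.59 and 0.42. The macrophage marker sum was likewise highest at 24 h in each tissue, 1572 against 460.4 and 601.6 against 276.2, and its part in the Bnip3 level was not tested. Bnip3l, the related mitophagy gene, stood between 30.4 and 47.8 in all libraries, and Bnip3 made up 18.2%, 33.9% and 24.8% of the summed FPKM of both in the omentum and 26.2%, 32.2% and 26.2% in the mesentery. Among the closest patterns were those of Manbal and Dnajc30 (Pearson's r 0.997 and 0.995).

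Set against all expressed genes, defined as reaching 1 FPKM in any library, the count of genes past 2-fold was not high in any comparison with naive. In OM 24h against naive OM, 2 of the 10 genes were at least 2-fold higher (Egln3 and Bnip3) and 0 lower, beside 18.3% of the 13064 expressed genes in either direction, 11.9% higher and 6.45% lower. The median difference of the 10 was 0.88, with 8 of 10 above 0. Over all expressed genes the median was 0, with 6451 of 13064 above 0. After rescaling to a sum of 1000000 these medians were 0.70 and -0.17. In OM 7d against naive OM only Egln3 was past 2-fold, beside 12.9% of expressed genes (11.0% higher and 1.96% lower), and the median was 0.20. In the mesentery 0 of 10 were past 2-fold at 24 h, beside 4.32% (2.80% higher and 1.52% lower). At 7 d it was also 0 of 10, beside 2.79% (0.498% higher and 2.29% lower). The mesenteric medians were 0.06 at 24 h and 0.31 at 7 d. After that rescaling the one at 24 h was -0.01, and that of all expressed genes was -0.09. In OM 24h, then, 6 of the 8 genes above naive lay under 2-fold.

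Between tissues, 2 of 10 differed at least 2-fold in naive mice (Slc2a1 higher and Pfkfb3 lower in the omentum), beside 16.2% of expressed genes (8.18% higher and 8.05% lower). At 24 h it was 5 of 10, beside 24.1% (13.9% higher and 10.2% lower). Slc2a1, Hk2, Ldha and Egln3 were the higher ones in OM 24h and Pfkfb3 the lower one. At 7 d it was 3 of 10, beside 19.1% (14.1% higher and 4.99% lower), with Hk2 and Egln3 higher and Pfkfb3 lower in OM 7d. Over the 3 time points 4 of 10 genes had omental values that did not overlap the mesenteric ones, Slc2a1, Hk2 and Hif1a above and Pfkfb3 below, beside 34.4% of expressed genes (16.7% above and 17.7% below). The shares for the 2-fold rule over time and for the non-overlap rule are near their backgrounds. The comparisons with naive share the naive library of their tissue.

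**Figure D3:**
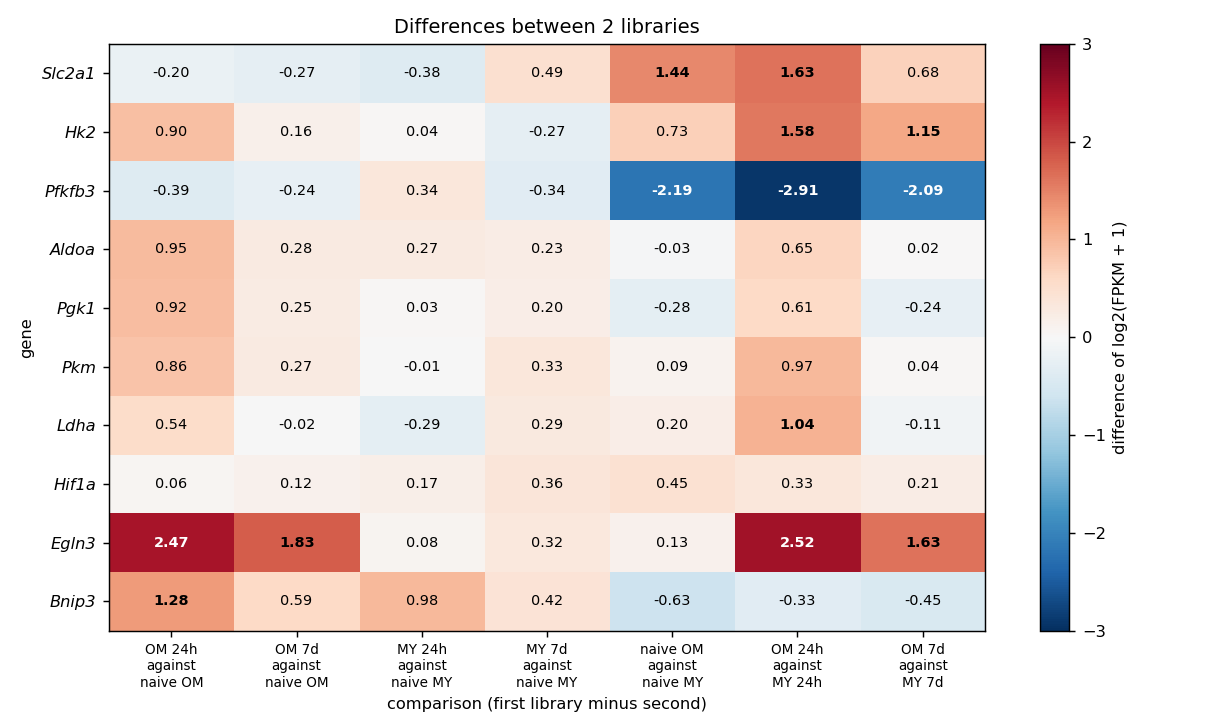
Difference of log2(FPKM + 1) between pairs of libraries (columns, first minus second) for the 10 genes (rows), on a colour scale from -3 to 3, with values past 2-fold in bold and 1 library on each side. In the first column 5 of the 10 values lie between 0.5 and 1, Pfkfb3 is below -2 in all 3 tissue comparisons, and Egln3 is above 1.6 in 4 of the 7 columns.

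Of 16 other glycolysis genes, 15 were above naive in OM 24h, with a median of 0.63, and 4 were past 2-fold, all higher: Ldhb, Hk3, Slc16a3 and, named after its values were seen, Pfkm, at 2.25, 6.57 and 9.52 FPKM in the omental series. Beside this stand the 18.3% of all expressed genes past 2-fold in that comparison (11.9% higher). The macrophage marker sum was 1572 in OM 24h against 460.4 in naive OM, and its part in this list was not tested. Slc16a3, which encodes the lactate exporter MCT4, rose from 17.3 to 72.4 FPKM (4.18 times) and was back at 21.4 in OM 7d. Tpi1, Gapdh, Pgam1 and Eno1 stood at 1.85, 1.90, 1.98 and 1.40 times their naive omental FPKM, each under 2-fold. At 7 d the median was 0.23 with 4 of 16 higher, beside 11.0% of all expressed genes, among them Slc16a1, which encodes the lactate carrier MCT1, at 18.6 against 8.68. In the mesentery 0 of 16 were past 2-fold at either time, beside 4.32% of all expressed genes at 24 h and 2.79% at 7 d. The medians there were 0.05 and 0.28, and Slc16a3 was at 5.84, 12.3 and 7.14.

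Other genes known as HIF targets moved in both directions. Of 21 expressed ones, 6 were higher and 2 lower past 2-fold in OM 24h against naive OM, beside 11.9% higher and 6.45% lower over all expressed genes, with a median of 0.49. Vegfa, the vascular growth factor gene, rose from 2.42 FPKM to 11.7 at 24 h and 11.1 at 7 d in the omentum, and stood at 1.46, 0.597 and 0.351 in the mesentery. The mesothelial and epithelial marker sum went from 86 to 974 and 933.3 in the same omental libraries, and its part in the Vegfa level was not tested. Ndrg1 rose from 4.21 to 14 and 26 in the omentum and was between 8.64 and 9.28 in the mesentery. The fibroblast sum was 335.7, 219.7 and 1179 in the omental series. The part of this sum and of the mesothelial and epithelial one in the Ndrg1 level was not tested. Adm, the gene of the vasodilator peptide adrenomedullin, fell in the omentum from 116.9 to 8.87 and 13.9 (differences -3.58 and -2.99) while it stayed at 3.01 or below in the mesentery. The B cell sum was 3958, 902.7 and 2442 in the same omental series. Of the tissue dissociation genes, Hspa1a and Hspa1b fell from naive in both injected omental libraries, while Fos, Jun and Egr1 rose. The part of B cells or of dissociation in the Adm level was not tested. Ddit4, an inhibitor of mTOR signalling, fell in both tissues, from 35.1 to 9.67 and 11.3 in the omentum and from 69.8 to 18.1 and 34 in the mesentery.

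At 7 d, 4 of the 21 targets were higher and 2 lower in the omentum, with a median of 0.09. Beside this stand 11.0% higher and 1.96% lower over all expressed genes. In the mesentery 1 was lower and 0 higher at 24 h, beside 1.52% lower and 2.80% higher over all expressed genes. At 7 d 1 was higher and 1 lower there, beside 0.498% higher and 2.29% lower. The mesenteric medians were 0.01 and 0.13. The mesenteric rise was that of Pdk1, which encodes a kinase that shuts pyruvate out of the citric acid cycle, from 15.5 to 35.3 FPKM. Pdk1 was lower in the omentum at all times, at 4.94, 6.43 and 5.32. The tissue order of Pdk1 was that of Pfkfb3 and the opposite of that of Slc2a1. As given for Pfkfb3, the T cell and NK cell sums were also higher in every mesenteric library than in every omental one. Their part in the Pdk1 level was not tested. Ero1l, an oxidase gene of the endoplasmic reticulum, stood between 10.6 and 12.1 in the omentum and between 4.82 and 9.04 in the mesentery.

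Genes around the pathway were counted in the same way. Beside the counts below stand these shares of all expressed genes past 2-fold against naive. They were 11.9% higher and 6.45% lower in OM 24h, and 11.0% and 1.96% in OM 7d. In MY 24h they were 2.80% and 1.52%, and in MY 7d 0.498% and 2.29%. Of the 7 expressed HIF subunit and regulator genes, 0 passed 2-fold against naive in either tissue, with medians between -0.05 and 0.16. Of 9 expressed genes of the pentose phosphate pathway and fructose bisphosphatases, 1 was lower in the omentum at 24 h and at 7 d (Rpia, at 2.93, 0.70 and 0.89 FPKM, named after its values were seen) and 0 were higher, and 0 of 9 passed in the mesentery. The medians of that list were 0.07 and -0.22 in the omentum and -0.05 and 0.07 in the mesentery. Of 11 genes for pyruvate entry to the mitochondrion, 0 passed in OM 24h, 1 was higher in OM 7d and 1 in MY 24h, in both cases Pdk4, whose FPKM was at most 2.60 and which was named after its values were seen. That list had medians of 0.09, 0.14, 0.10 and 0.25 in OM 24h, OM 7d, MY 24h and MY 7d against naive.

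**Figure D4:**
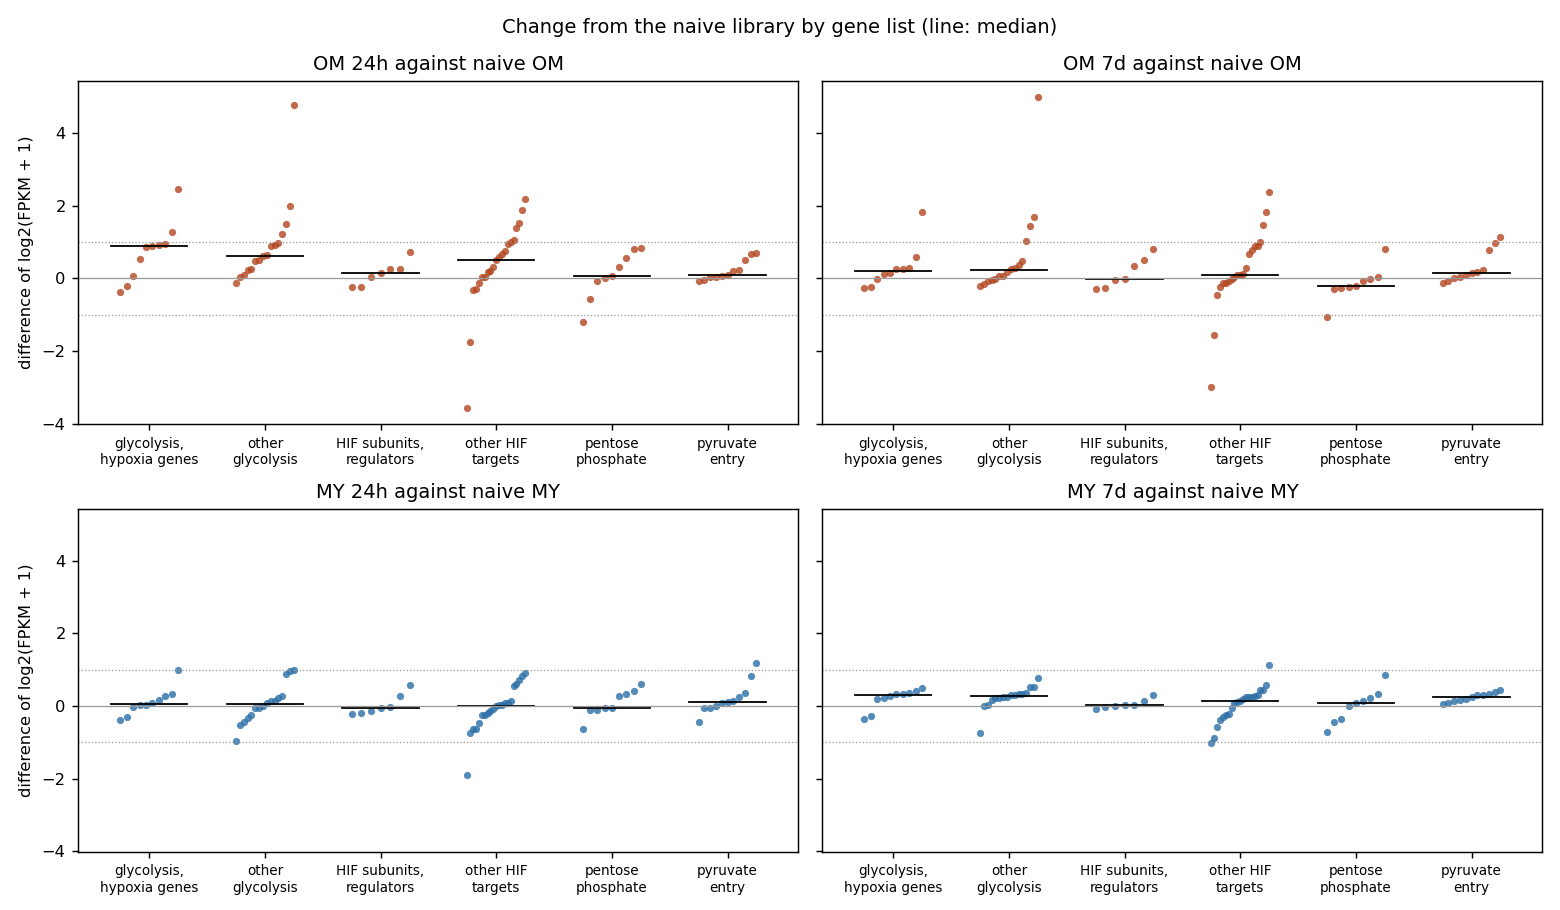
Difference of log2(FPKM + 1) from the naive library of the same tissue (vertical axis) for each expressed gene of 6 lists, with 1 panel per injected library, the median as a black line and 2-fold as dotted lines. In OM 24h the 10 genes have a median of 0.88 and the other glycolysis genes 0.63, with Ldhb far above the rest, while the mesenteric medians lie between -0.05 and 0.31.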

How the data were processed

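Macrophages were sorted by the authors, their reads checked with FastQC 0.11.4 and aligned to mm9 with STAR 2.4.2a (versions from the submitters' processing notes), and FPKM per gene symbol computed with Cufflinks. The deposited FPKM columns sum to 526887 to 713863. The ratio of low values gave depths of 0.857 to 1.49 relative to naive MY, and how many reads lie behind a value is unknown.

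Differences of log2(FPKM + 1) were computed between pairs of libraries (numpy 2.4.6 and pandas 2.3.3 under Python 3.11.15; plots with matplotlib 3.10.9), and differences of 2-fold or more were counted among the 13064 genes that reached 1 FPKM in any library. The log2 scale with a pseudocount of 1 understates changes of low genes. With 1 library per group no test was made. The members and gene lists were chosen with earlier results of these data known. All 10 genes are reported; from the other lists, genes set by name (Slc2a3, Hk1, Hk3, Eno1, Gapdh, Tpi1, Epas1, Egln1, Egln2, Vhl, Vegfa, Bnip3l, Slc16a3, Pdk1 and Ero1l) and up to 4 genes per comparison past 2-fold with an FPKM of at least 10 are named, and others are said to be named after their values were seen. The 3 genes most alike in pattern, by Pearson's r, are named for genes past 2-fold against naive (Egln3 and Bnip3, for which 1 is not reported here) and, outside this rule, for Pfkfb3. The scripts were tested on simulated data, which checks the arithmetic and not the reliability of a call. Promoter windows came from RefSeq (GRCm38.p6), matched to NCBIM37, and gene positions from GENCODE M1; the authors had used a UCSC annotation. Alternatives were pseudocounts of 0.1 and 5, 2 rescalings, 2 filters and leaving out time points. Ly6g was not used here.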

Additional observations from a re-analysis of the deposited data

Results flagged for a closer look

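Among 39 genes, the 10 and those that the naming rule takes from the other pathway lists, Vegfa was the only one whose difference from naive had opposite signs in the tissues at the same time and was at least 1.5-fold in each. On the log2(FPKM + 1) scale the difference was 1.89 in the omentum and -0.62 in the mesentery at 24 h, and 1.82 and -0.87 at 7 d. The difference between the tissues was not tested. The mesenteric FPKM of Vegfa was at most 1.46, and with a pseudocount of 5 the mesenteric value at 7 d was -0.27. The mesothelial and epithelial marker sum was 86, 974 and 933.3 FPKM in naive OM, OM 24h and OM 7d and at most 1.07 in the mesentery, and its part in the Vegfa level was not tested. Of the pathway genes outside those 39, named after their values were seen, Plod2 at 24 h (1.07 in the omentum and -0.74 in the mesentery) and Eno2 at 7 d (1.44 and -0.74) did the same, each below 10 FPKM in every library.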

How the results depend on the processing

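No paired analysis was possible because the labels give no replicate numbers that pair libraries and no result here comes from a test. Both tissues were sampled at the same 3 times, and a fit of tissue with time as a block was not run. With no replicate spread, a count was taken as unchanged within 1.5 times and a log2 value within 0.58. Of 413 recomputed differences of the 10 genes, 404 stayed within this, 9 moved, all of them under a pseudocount, and 8 small ones changed sign, all after rescaling to a sum of 1000000. The medians over the 10 genes all stayed within it, but those near 0 changed sign after that rescaling (-0.01 in MY 24h against naive MY, -0.03 in OM 7d against MY 7d and -0.09 in naive OM against naive MY). Of the 10 genes, the number at least 2-fold apart was 1 in place of 2 in OM 24h against naive OM (Bnip3 is lost with a pseudocount of 5 and Egln3 under the filter) and 0 in place of 1 in OM 7d against naive OM, both with a pseudocount of 5 and when every library had to reach 1 FPKM, a filter that leaves out Egln3 by its naive MY value of 0.925. It was 1 in place of 3 in OM 7d against MY 7d with a pseudocount of 5, where Hk2 and Egln3 are lost, and 1 in place of 0 in MY 24h against naive MY with a pseudocount of 0.1. Without the 7 d libraries, 7 in place of 4 genes kept the tissues apart, beside 6789 in place of 4498 of the 13064 expressed genes. Without the 24 h libraries it was 6, beside 6681, and without the naive libraries 6, beside 7446. With fewer libraries, non-overlap is easier to reach.

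Over all expressed genes, in the order OM 24h, OM 7d, MY 24h and MY 7d against naive, then OM against MY in naive mice, at 24 h and at 7 d, the numbers past 2-fold were 2396, 1688, 565, 364, 2119, 3145 and 2494. They were 1165, 699, 213, 143, 1033, 1625 and 1174 with a pseudocount of 5 and 1424, 629, 329, 204, 1174, 1713 and 1023 with the stricter filter. With a pseudocount of 0.1 OM 24h against naive gave 3599, MY 24h 1242 and MY 7d 912, and the naive libraries gave 3189. Genes that did not overlap between tissues numbered 4498, and 2980 with the stricter filter, 6789 without the 7 d and 7446 without the naive libraries. Rescaling to a sum of 1000000 moved the median of all genes by -0.17, 0.13, -0.20 and -0.28 in OM 24h and OM 7d against naive and OM against MY in naive mice and at 24 h, and the share of calls that were higher from 64.9% to 50.4%, 64.8% to 49.4%, 50.4% to 38.6% and 57.6% to 41.2% in OM 24h and MY 24h against naive and OM against MY in naive mice and at 24 h. The causes were not tested.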
